A study of Homo sapiens with 8 samples.

Results

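The comparison is the recovery of RNF14 knockout cells, 30 min against 0 min after 4SU and UVA treatment, measured as ribosome footprints. Its members are the genes with a mean of 1 RPKM or more over the 4 knockout libraries, which left 11937 of the 19580 genes listed, each with 1 transcript. RPKM is reads scaled to the length of the transcript and to the total of the library. Of the others, 4642 had no read in any knockout library and 3001 had reads but lay below that mean. The nearest transcripts on either side of the limit had means of 1.0002 RPKM (1447 nt long) and 0.999 RPKM (1938 nt long). A transcript could pass through 1 time point alone. Among the members, 84 had no read in either library at 0 min and 62 had none in either at 30 min.

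HAP1, the line used, is an adherent, near-haploid human line that came from a chronic myeloid leukaemia line. All groups were given 4SU at 5 uM over 18 h and then UVA light at 6 kJ/m2, so neither untreated nor unirradiated cells enter the comparison. The 4 groups were RNF14 knockout harvested at 0 min, RNF14 knockout at 30 min, wild type (WT) at 0 min and wild type at 30 min, with 2 biological replicates each. The labels do not say how the knockout was made or whether it is 1 clone.

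Ribosome profiling sequences the short stretches of mRNA that ribosomes protect from nuclease, so that the reads on a transcript reflect both how much of its mRNA there is and how many ribosomes sit on each copy. 4-thiouridine is taken up into new RNA, and UVA then links that RNA to the proteins bound to it. RNF14 is an E3 ubiquitin ligase known to act at ribosomes stalled by such obstacles, together with GCN1 and the ligase RNF25. The comparison asks which footprints move during the first minutes of recovery when RNF14 is missing.

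The deposited table gives Ensembl gene IDs and no gene names, and 0 of its 19580 IDs could be paired with a name through the gene table used here. Functional classes could therefore not be assigned, and RNF14 itself and the markers of the line were not checked. Members are described by transcript length, by footprint level in the wild-type libraries and by their values. No knockout value enters the classes, but the wild-type libraries at 30 min do, and all 8 libraries enter the estimate of spread behind the knockout calls. These classes were set with the data already seen.

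By reads recovered from RPKM and length, knockout depth was 1241975 and 778683 for the libraries at 0 min but 323946 and 459227 for those at 30 min. The wild-type libraries held 890647 and 971695 at 0 min and 717828 and 516410 at 30 min. Over the members the knockout replicates correlated at r = 0.97 at 0 min and r = 0.89 at 30 min (Pearson, log2(RPKM + 1), across 11937 transcripts, which are not independent). The shallowest library, knockout 30 min replicate 1, is also the one whose column carries an extra suffix. The main counts and some of the transcripts described singly are also given without it. Where no second value is given, the value can still have moved. Depth and recovery time go together in both genotypes, and fewer ribosomes per mRNA and less mRNA cannot be told apart.

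Recovery in the knockout changed 240 of the 11937 transcripts, or 2.01% (limma-trend on log2(RPKM + 1), Benjamini-Hochberg adjusted p below 0.05). The rises numbered 78 (0.653%) and the falls 162 (1.36%). The risers had a median change of 1.21 on the log2(RPKM + 1) scale and a median of 1248.5 reads over the 4 libraries. The fallers had a median change of -1.17 and 316.5 reads. The median over all tested transcripts was -0.11, with 103 reads. In all 240 the libraries at 30 min lay wholly above or wholly below those at 0 min, a pattern that 18.9% of tested transcripts showed upward and 30.7% downward.

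The count model voom called 197 transcripts up (1.65%) and 123 down (1.03%), among them 73 of the 78 risers and 75 of the 162 fallers. A fit of the 4 knockout libraries alone called 53 of the risers and 41 of the fallers. Under RPKM, TPM, median-centred and quantile scaling alike, 36 risers and 29 fallers were called. The split was 78 up and 162 down with RPKM, 90 and 486 with TPM, 44 and 29 with median centring, 84 and 57 with quantile normalization, and 197 and 123 with voom. Dropping any 1 knockout library moved the total by more than 1.5 times. It was 26 (17 up, 9 down) and 7 (6 up, 1 down) without 0 min replicate 1 or 2, and 100 (46 up, 54 down) and 420 (133 up, 287 down) without 30 min replicate 1 or 2. Without wild type 30 min replicate 1 or 2, which enter only the estimate of spread, it was 136 and 140.

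**Figure D1:**
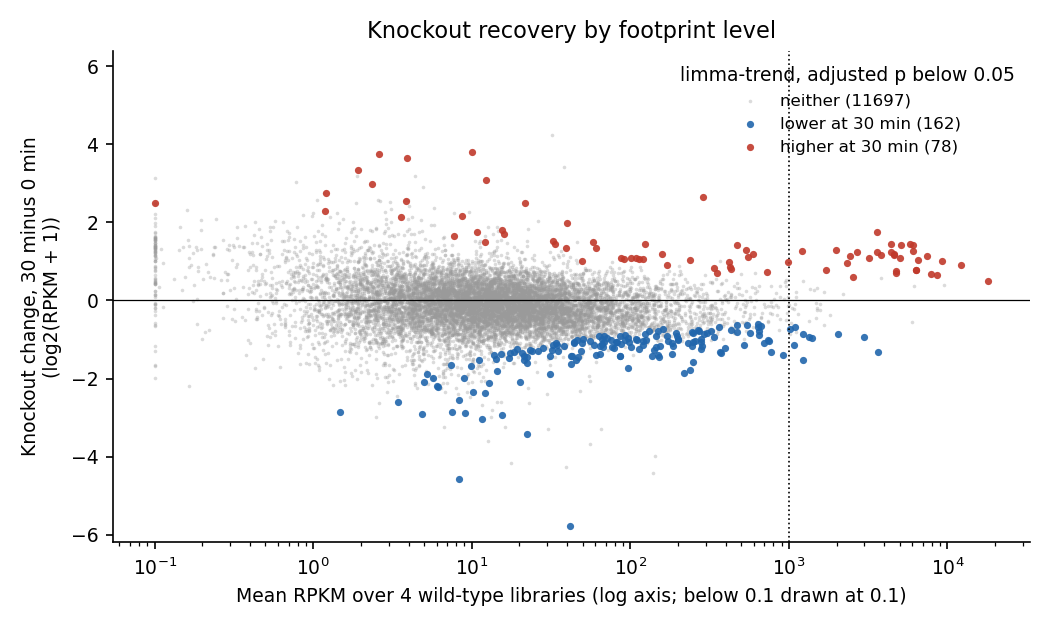
Knockout change from 0 to 30 min (log2(RPKM + 1)) against the mean RPKM of each transcript over the 4 wild-type libraries (log axis), 1 point per tested transcript, coloured by the limma-trend call. The dotted line marks 1000 RPKM, right of which 31 of 69 transcripts rose and 10 fell.

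Rises outnumbered falls among the transcripts most densely covered by ribosomes. In 69 transcripts the mean over the wild-type libraries was 1000 RPKM or more. In the knockout 31 of these 69 rose, 10 fell and 28 were not called, so 59.4% changed against 2.01% of all tested. Their median change was 0.37 in the knockout, against -0.11 for all tested transcripts, and 0.84 in wild type. It was 0.25 with TPM, 0.44 with median centring and 0.46 with voom, and 0.00 after quantile normalization, which gives all libraries 1 distribution. Chosen on the 2 wild-type libraries at 0 min alone, the class held 66 transcripts, of which 28 rose and 12 fell. Without knockout 0 min replicate 1 or 2, 14 and 4 of the 69 rose and 1 and 0 fell. Without knockout 30 min replicate 1, 17 rose and 3 fell.

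Below 1000 RPKM 47 transcripts rose and 152 fell, a balance that turned with the scaling. Under TPM 57 rose and 469 fell, under median centring 25 and 28, and the figures were 54 and 54 with totals taken without the densest transcripts, 70 and 47 with quantile normalization and 165 and 112 with voom. Without knockout 30 min replicate 1 it was 27 and 51, and without replicate 2 it was 94 and 276. Without 0 min replicate 1 or 2 it was 3 and 8, and 2 and 1. Of 351 transcripts between 200 and 1000 RPKM in wild type, 13 rose and 41 fell, with a median change of -0.32. Of 1343 between 50 and 200 RPKM, 11 rose and 52 fell, with a median of -0.25. Of 5138 between 10 and 50 RPKM, 12 rose and 44 fell, with a median of -0.14. In the 5036 under 10 RPKM, 11 rose and 15 fell, and the median was -0.01. The medians for 200 to 1000 RPKM and for 50 to 200 RPKM stayed below 0 under TPM, median centring, quantile normalization, voom and totals taken without the 69 densest transcripts, at -0.05 and -0.01 under quantile normalization. Without knockout 30 min replicate 1 they were -0.23 and -0.21, with 5 up and 11 down from 200 to 1000 RPKM and 0 up and 12 down from 50 to 200 RPKM. The gap between replicates shrank along the same order. Its median at 30 min was 0.58 under 10 RPKM, 0.37, 0.25 and 0.21 in the next classes and 0.13 from 1000 RPKM (log2(RPKM + 1)). The part of this precision in the share of calls per class was not tested.

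The share of reads moved accordingly. The 69 densest transcripts took 16.2% and 16.3% of all reads in the knockout libraries at 0 min and 24.3% and 24.0% at 30 min. The groups did not overlap, and the difference was 7.91 percentage points, from 16.3% ± 0.0307 to 24.2% ± 0.188 (SD, n = 2 each). In wild type the shares were 14.3% and 16.2% at 0 min and 25.0% and 24.6% at 30 min. A large part of the class's reads lay on 1 transcript, of 4298 nt. In the knockout it held 73114 of 201660 and 48248 of 126773 class reads at 0 min. At 30 min it held 28679 of 78709 and 38460 of 110360. The gain is therefore not spread evenly over the 69. Transcripts between 200 and 1000 RPKM went from 16.6% and 16.3% to 13.8% and 15.2% of knockout reads. Those under 50 RPKM, 10174 in number, went from 42.8% and 43.5% to 41.2% and 39.4%. With 2 libraries against 2, the exact permutation test (two-sided, 6 arrangements) of the densest class could not go below p = 0.333, which is the value it gave.

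**Figure D2:**
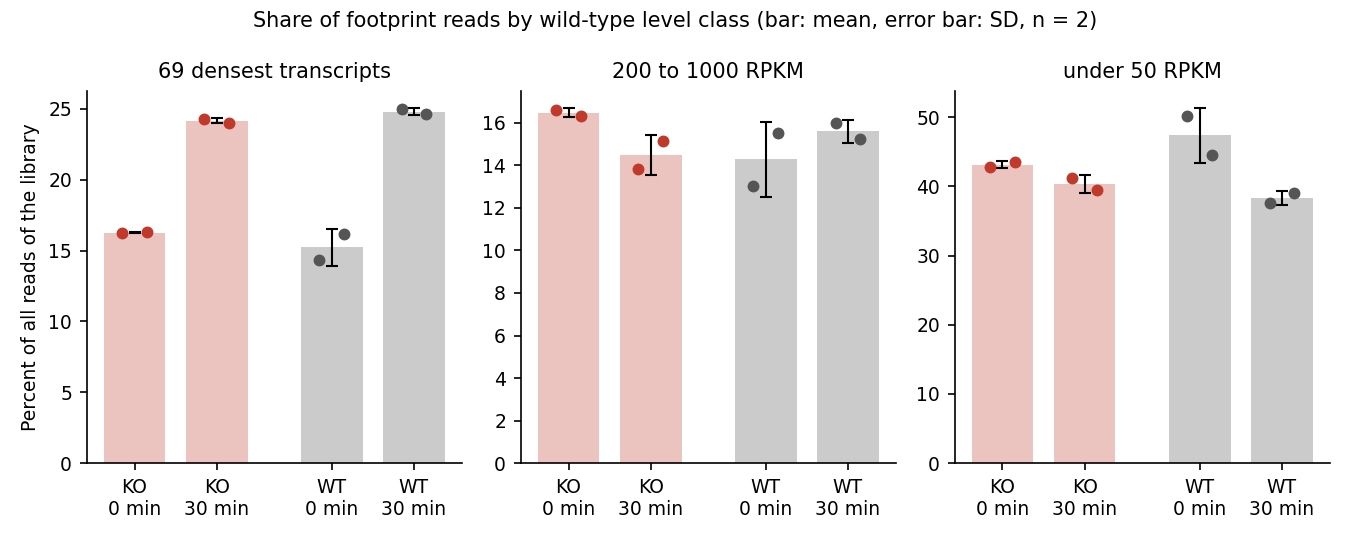
Percent of all reads of a library (axis from 0) taken by transcripts of 3 wild-type level classes, for knockout (KO) and wild type (WT) at 0 and 30 min. Points are libraries, bars means and error bars SD (n = 2). The 69 densest transcripts rise from 16.3% to 24.2% in the knockout.

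The densest class was mostly short, with 46 of its 69 transcripts no longer than 600 nt, as were 23 of its 31 risers and 5 of its 10 fallers. Among these 46, 23 rose, 5 fell and 18 were not called. The 23 risers were 388 to 527 nt long, and their knockout changes ran from 0.66 to 1.76 with a median of 1.15. The 5 fallers were 418 to 586 nt long, with changes from -1.31 to -0.86. Several of these 23 rises and 5 falls were no longer called without knockout 30 min replicate 1. The median change of the 46 was 0.62, and 0.61 without that library. Over all 331 tested transcripts of up to 600 nt, 29 rose (8.76%, against 0.653% of all tested) and 28 fell (8.46%, against 1.36%). Of these, 23 of the 29 risers but 5 of the 28 fallers were in the densest class, and the median change of the 331 was -0.25. The share that rose was 1.75% of those above 600 and up to 1000 nt, 0.526% up to 2000 nt, 0.357% up to 4000 nt and 0.0914% beyond. The share that fell was higher in each, at 5.87%, 1.87%, 0.558% and 0.152% in the same order. Of the 73 transcripts of up to 600 nt between 200 and 1000 RPKM in wild type, 3 rose and 14 fell, and the median was -0.42. The reads of near-identical transcripts may have been divided or discarded by the counting rule, which the sources used here do not give.

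The 46 dense, short transcripts together held 6.62% and 6.45% of knockout reads before and 10.6% and 10.4% after recovery. Their wild-type shares were 4.95% and 5.77% before and 11.8% and 10.3% after recovery. Both genotypes showed a gain without overlap between times. Longer ones behaved in a mixed way. Of the 19 densest transcripts above 600 and up to 1000 nt, 7 rose and 5 fell. Of the 4 over 1000 nt, the 1 that was called, of 4298 nt, rose.

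**Figure D3:**
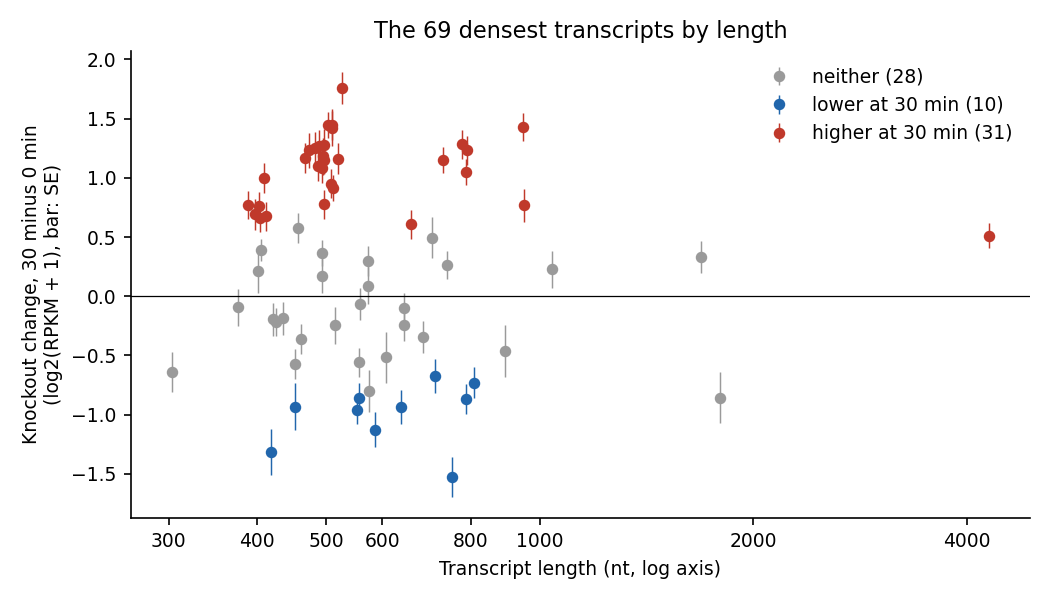
Knockout change (log2(RPKM + 1), error bar SE) of the 69 densest transcripts against transcript length (nt, log axis), coloured by the limma-trend call. The 23 risers of up to 600 nt lie between 388 and 527 nt, while fallers are spread from 418 to 807 nt.

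Values in single libraries show how tight these rises were. The densest of the short risers, 511 nt long, stood at 9233 and 8595 RPKM in the knockout at 0 min and at 16927 and 16602 RPKM at 30 min, a change of 0.91 (SE 0.11, limma adjusted p = 0.00242). Wild type had 6251 and 7303 RPKM, then 18396 and 16602 RPKM, on this transcript. Levels on the 731 nt transcript were 4963 and 5023 RPKM before and 10435 and 11755 RPKM after recovery, a change of 1.15 (SE 0.11, limma adjusted p = 0.00113). Larger still was the rise of the 948 nt transcript, from 3242 and 3029 to 8600 and 8297 RPKM, a change of 1.43 (SE 0.12, limma adjusted p = 0.000672). In all of these, both libraries at 30 min were far above both at 0 min and the replicates were close. With knockout 30 min replicate 1 left out, the limma adjusted p was 0.0597 for the 511 nt transcript, which ends its call, and 0.0342 for the others. These 3 were picked after their values were seen, to span the class. The transcript with the highest level, of 4298 nt, rose less, from 13697 and 14416 to 20598 and 19486 RPKM, a change of 0.51 (SE 0.11, limma adjusted p = 0.0424, and 0.210 without knockout 30 min replicate 1).

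Falls among the densest transcripts ran from -1.53 to -0.67. The 752 nt transcript moved from 1466 and 1721 RPKM to 472 and 643 RPKM, a change of -1.53 (SE 0.17, limma adjusted p = 0.00193). In wild type its values were 1545 and 1767 RPKM, then 785 and 832 RPKM, also without overlap. Footprints on the 418 nt transcript dropped from 4242 and 4353 to 1344 and 2219 RPKM, a change of -1.31 (SE 0.20, limma adjusted p = 0.0104). Here the libraries at 30 min were far apart, although both lay below 0 min, and without replicate 1 the change was -0.95 (limma adjusted p = 0.0483). The 553 nt transcript, from 1932 and 1911 to 988 and 980 RPKM, had close replicates at both times, a change of -0.96 (SE 0.12, limma adjusted p = 0.00298). These, too, were picked after their values were seen.

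The largest rises lay mostly on sparsely read transcripts. The 12 largest among called transcripts with at least 50 reads over the 4 knockout libraries ran from 1.76 to 3.75, on transcripts of 390 to 9636 nt. First was ENSG00000113196.3, of 1701 nt, at 1.89 and 2.26 RPKM at 0 min and 32.7 and 49.9 RPKM at 30 min. These rest on 7 reads before and 57 after recovery. The change was 3.75 (SE 0.57, limma adjusted p = 0.0115), and its share of reads was 21.0 times higher (exact 95% interval 9.56 to 54.6, counting error only). In wild type it was at 0.660 and 1.21 RPKM and then 7.37 and 1.14 RPKM, so that the times overlapped there. The change was 4.05 and no longer called without knockout 30 min replicate 1 (limma adjusted p = 0.0710).

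For several others of the 12 the knockout values rose while the wild-type times overlapped. The transcript of 9636 nt had 0.836 and 0.80 RPKM at 0 min and 23.1 and 7.68 RPKM at 30 min in the knockout, a change of 2.99 (SE 0.54, limma adjusted p = 0.0230). Its wild-type values were 3.26 and 1.82 RPKM, then 2.89 and 1.41 RPKM. The knockout libraries at 30 min differed from each other by a wide margin, with replicate 1 the higher. The transcript of 2478 nt went from 2.27 and 0.518 to 31.1 and 14.9 RPKM, again highest in replicate 1, against 2.27 and 1.25 and then 3.37 and 0.781 RPKM in wild type. The transcript of 2125 nt went from 3.03 and 5.44 to 21.8 and 21.5 RPKM, with close replicates at 30 min, and its wild-type values ran from 5.81 to 11.1 RPKM with times overlapping. After knockout 30 min replicate 1 was left out, these 3 changes were 2.26, 2.84 and 2.14 and were not called (limma adjusted p = 0.0901, 0.121 and 0.101). In that fit 5 of the 12 rises were still called, and without replicate 2, 7 were. Without 0 min replicate 1 or 2, 2 and 3 were.

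**Figure D4:**
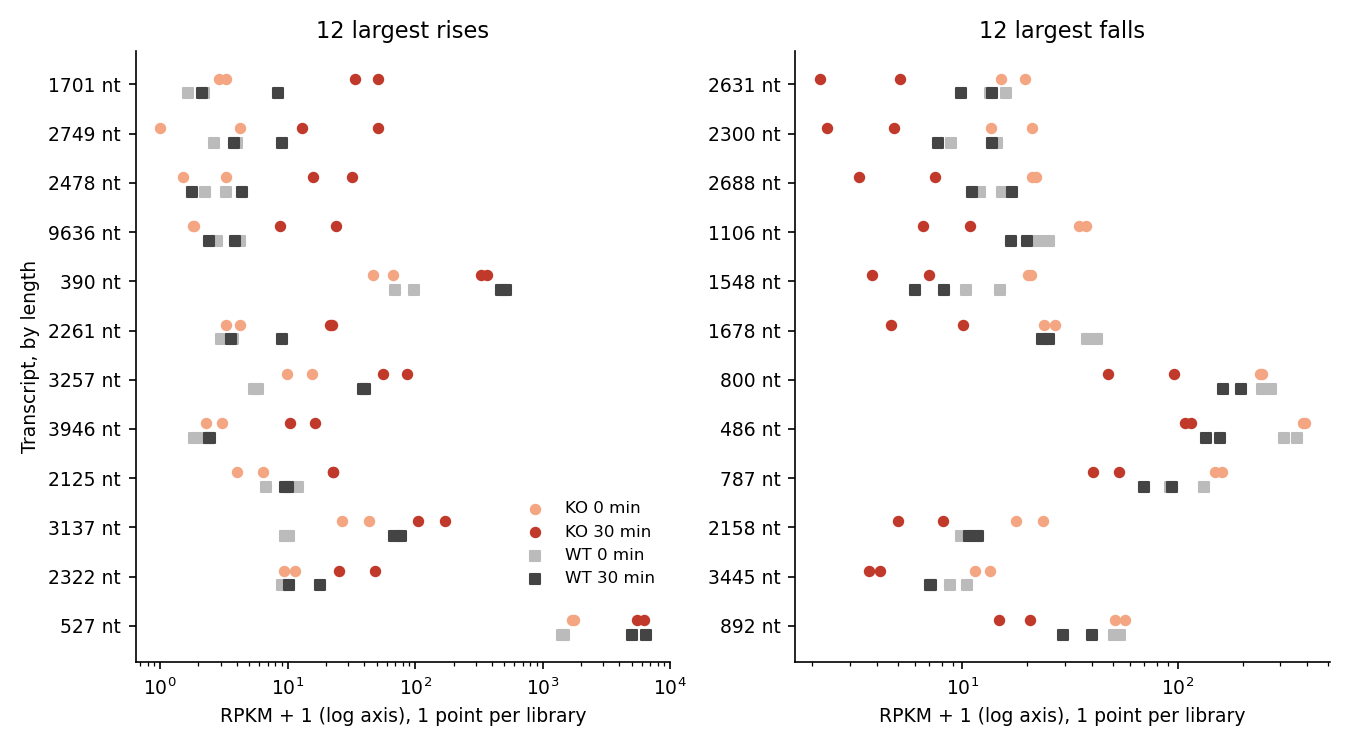
RPKM + 1 in each library (log axis) for the 12 largest rises and 12 largest falls of knockout recovery, each transcript named by its length. Circles are knockout (KO) and squares wild-type (WT) libraries, 2 per group. The transcripts were chosen for a knockout call without overlap between times. In wild type both libraries at 30 min lie above both at 0 min for 5 of the 12 rises (13.9% of all tested) and below for 7 of the 12 falls (38.7%).

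Of these 12 rises, 4 were called in wild type as well (limma-trend adjusted p below 0.05). The transcript of 390 nt was at 45.4 and 65.9 RPKM at 0 min and 364 and 329 RPKM at 30 min in the knockout, a change of 2.64 (SE 0.22, limma adjusted p = 0.000768). Footprints on the 3257 nt transcript increased from 8.90 and 14.6 to 55.0 and 85.6 RPKM, a change of 2.49 (SE 0.31, limma adjusted p = 0.00322). A similar course was seen for the 3137 nt transcript, from 25.7 and 42.6 to 104 and 170 RPKM, a change of 1.98 (SE 0.30, limma adjusted p = 0.0110). For both of the last, knockout replicate 2 was the higher at both times. The fourth, ENSG00000278463.2, of 527 nt, is also one of the densest, at 1768 and 1708 RPKM and then 6285 and 5508 RPKM, a change of 1.76 (SE 0.13, limma adjusted p = 0.000596). Its read share rose by a ratio of 3.34 (exact 95% interval 3.14 to 3.55, counting error only).

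The 12 largest falls with at least 50 reads ran from -2.36 to -1.63, on transcripts of 486 to 3445 nt. First was ENSG00000138678.11, of 2631 nt, at 14.1 and 18.5 RPKM at 0 min and 1.17 and 4.14 RPKM at 30 min. These rest on 84 reads before and 6 after recovery, a change of -2.36 (SE 0.42, limma adjusted p = 0.0225). Its share of reads dropped 5.43-fold (exact 95% interval 2.39 to 15.2, counting error only). In wild type it was at 12.4 and 14.9 RPKM, then 12.7 and 8.83 RPKM, with overlap. The change was -1.74 and not called without knockout 30 min replicate 1 (limma adjusted p = 0.0893).

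Other falls were carried by more reads. ENSG00000188243.14, of 486 nt, went from 381 and 391 RPKM to 114 and 108 RPKM, a change of -1.79 (SE 0.16, limma adjusted p = 0.000793), and is the 1 of these 12 that the wild-type test also called. In 7 of the 12 both wild-type libraries at 30 min lay below both at 0 min, as in 38.7% of all tested transcripts. The 800 nt transcript moved from 241 and 246 to 46.3 and 95.3 RPKM, with replicate 1 the lower at 30 min, and without that library the change was -1.34 in place of -1.85 (limma adjusted p = 0.0378). The 787 nt transcript moved from 160 and 148 to 39.2 and 52.6 RPKM, a fall not called without that library (limma adjusted p = 0.0708). Without knockout 30 min replicate 1 or 2, 4 and 10 of the 12 falls were called, and without 0 min replicate 1 or 2, 1 and 1 were. After thinning all libraries to 323946 reads, 3 of the 12 rises and 2 of the 12 falls were still called.

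Beside wild type, the knockout calls varied in how far wild type moved with them. The recoveries of the genotypes share no library, and 381 of all tested transcripts (3.19%) were called in wild type. Both tests use the same estimate of spread for each transcript, however, so a small spread favours a call in both genotypes. Of the 31 dense risers, all had a positive change in wild type and 30 were called there, with a median of 1.46 against 1.15 in the knockout. Of the 23 risers under 50 RPKM in wild type, 8 were called there, with a median of 0.76 against 2.15 in the knockout. Of the 162 fallers, 19 had a positive change in wild type (11.7%, against a background of 30.8%), and the wild-type test called 24. These transcripts were chosen for their knockout change, which favours the knockout value in each pair. The level classes also hold wild type at 30 min, which favours wild-type rises in the dense class and works against them under 50 RPKM. How far the contrast between these classes rests on that was not tested.

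**Figure D5:**
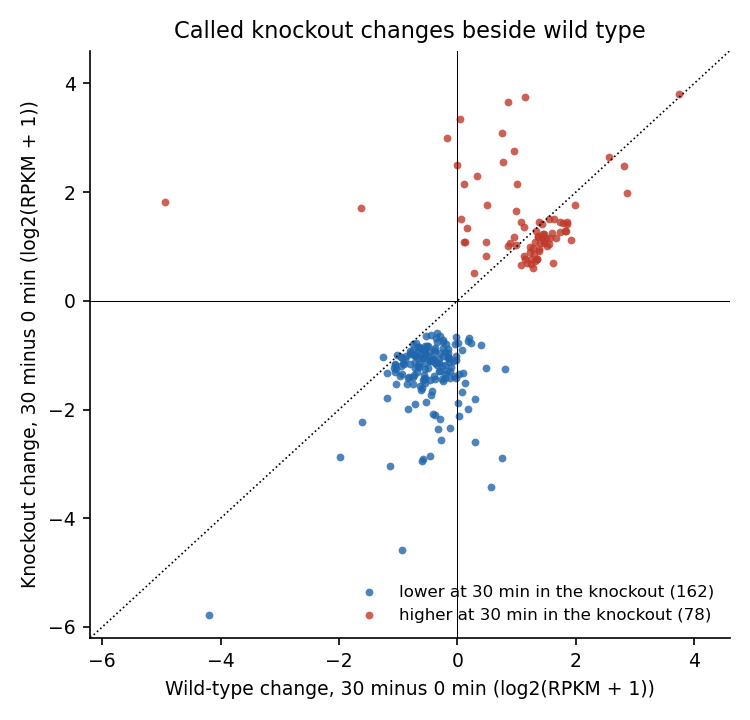
Change from 0 to 30 min in the knockout against that in wild type (both log2(RPKM + 1)) for the 240 transcripts called in the knockout, 78 up and 162 down. The dotted line marks equal change. Most dense risers form a cluster near 1.15 in the knockout and 1.46 in wild type. The 12 largest rises with at least 50 reads lie between 1.76 and 3.75 in the knockout. In wild type these 12 are spread from -0.18 to 2.87, with a median of 0.81.

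The test of the difference itself, knockout recovery minus wild-type recovery, called 1 of 11937 transcripts, or 0.00838% (limma-trend with Benjamini-Hochberg adjustment). The called one, 51 nt long, had 2, 1, 2 and 2 reads in the knockout libraries and 1, 2, 0 and 0 in wild type, and with a filter of 10 reads on average 0 were called. Before adjustment 1590 (13.3%) had a p below 0.05. Voom called 65 (0.545%), of which 35 were higher and 30 lower in the knockout. None of the 24 largest changes passed, the lowest limma adjusted p being 0.239. The same lowest value held for the 69 densest.

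For the densest transcripts the recoveries of the genotypes were ordered, although no single difference passed. The knockout change was below the wild-type change in 65 of the 69 and in 44.7% of all tested transcripts. The order was not particular to the 69, as 312 of 351 (88.9%) from 200 to 1000 RPKM showed it. From 50 to 200 RPKM 862 of 1343 (64.2%) did. The median difference was -0.45 in the 69, against 0.10 over all tested. It was -0.42 in the class from 200 to 1000 RPKM and -0.20 from 50 to 200 RPKM. In the 69 it was -0.26 with TPM, -0.66 with median centring, -0.58 with voom and -0.05 after quantile normalization, and it ran from -0.54 to -0.33 when any 1 library was left out. With the class chosen on wild type at 0 min alone it was -0.41. The 69 transcripts come from the same 8 libraries and are not independent. Together they held 16.2% and 16.3% of knockout reads at 0 min, against 14.3% and 16.2% in wild type. At 30 min the shares were 24.3% and 24.0% against 25.0% and 24.6%. A smaller change can reflect a higher start or a lower end, and which applied was not tested.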

How the data were processed

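Ribosome footprints from 8 HAP1 libraries were compared, 4 of them RNF14 knockout. The authors deposited RPKM values, per the file headers, with transcript lengths. The names cutadapt, STAR 2.7.10a and hg38 appear in the submitters' processing notes, while the counting rule is not given in the sources used here. RPKM times length gave whole reads for 100% of values above 0 (tolerance 0.05 reads). Intervals are exact Clopper-Pearson. The limma-trend p-values rest on the spread between the 2 replicates of each group, pooled over the 4 groups. That spread was drawn towards its trend with level across transcripts.

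Changes were tested by limma-trend (version 3.58.1 of limma in R 4.3.3) on log2(RPKM + 1), two-sided, in 1 fit of 4 group means over all 8 libraries, without a replicate block, adjusted over the 11937 tested transcripts at 0.05. Fold changes on this scale understate low transcripts. The fit was run on simulated counts with planted changes. Their spread was set in advance and not taken from these libraries, so that run does not measure the error of the calls here. Voom used recovered reads with TMM factors. Members and lists were chosen with earlier results of these data known. The rule for transcripts given in full took up to 12 per direction, called, without overlap, with at least 50 reads. It also asked for a gene name, a condition that was dropped. The 49 gene lists, marker lists included, were not run because no ID could be named. Thinning, totals without the densest transcripts, and the level classes were chosen after seeing the data. Python 3.11.15, numpy 2.4.6, pandas 2.3.3, scipy 1.17.1 and matplotlib 3.10.9 were used.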

Additional observations from a re-analysis of the deposited data

Results flagged for a closer look

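Among the densest transcripts, 3 had libraries that all moved down in the knockout and all moved up in wild type. None was called in either test of the difference or of knockout recovery. Over all tested transcripts 30.7% lay wholly lower at 30 min in the knockout and 13.9% wholly higher in wild type. The share with both was not counted, so these 3 are not set apart from the background. The transcript of 643 nt with a wild-type mean of 1570 RPKM had a difference, knockout change minus wild-type change, of -0.58 (limma adjusted p = 0.266). The transcript of 685 nt had a difference of -0.56 (limma adjusted p = 0.267) and the transcript of 425 nt one of -0.36 (limma adjusted p = 0.380). The transcript of 51 nt, the 1 call of the difference between genotypes, had a difference of 6.76 (limma adjusted p = 0.000456) on 0 to 2 reads a library.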

How the results depend on the processing

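The 240 calls of knockout recovery became 150 with no filter, 434 with a filter of 10 reads, 576 with TPM, 73 with median centring, 141 after quantile normalization, 103 with the knockout libraries alone, 60 with thinned libraries and 148 with totals without the densest transcripts. Without a trend in the prior limma called 0, with 1936 at an unadjusted p below 0.05, where voom called 320. Leaving out 1 library gave 7 to 420. The 31 dense risers became 19, 14 and 0 with median centring, quantile normalization and no trend, and 4 to 32 with 1 library left out. The 10 dense fallers became 17, 1, 0 and 6 with TPM, median centring, no trend and thinning, and 0 to 13 with 1 library left out. The gain of 7.91 percentage points by the densest class was 13.1 as a share of summed RPKM and 7.77 to 8.04 with 1 library left out. The 1 call of the difference between genotypes became 0 with a filter of 10 reads, where 1429 had an unadjusted p below 0.05 (limma), and 0 with thinning, where 1294 did, 65 with voom, and 0 to 4 with 1 library left out. The 24 transcripts given in full kept their direction in all 528 refits, kept their call in 357 and lost it in 171.

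The labels give groups the same replicate numbers. With a replicate block 227 transcripts were called in knockout recovery (82 up, 145 down) and 1 in the difference. The deviations of same-numbered knockout libraries at 0 and 30 min correlated at 0.02 across transcripts. Counting error also enters these deviations, so the value cannot exclude that same-numbered samples shared a culture or a day. The planned medians and counts of gene lists were not run, since no gene ID could be named. Depth limits the sparsely read transcripts: 8 of the 78 risers and 18 of the 162 fallers had under 50 reads over the 4 knockout libraries.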
